A study of Mus musculus with 4 samples.

Results

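The genes described are the Eph receptors, their ephrin ligands, the semaphorins and the plexins that bind semaphorins, as read by the probes of an Agilent whole-genome array in mouse back skin. They were found by gene name alone, from the Epha, Ephb, Efna, Efnb, Sema and Plxn families, and a probe was kept when the scanner software marked it, for 1 group or both, as well above background on each of the group's arrays. The array carried 88 such probes for 51 genes, of which 68 probes for 46 genes were kept, among 17553 genes kept in all. By class, 9 of 14 Eph receptor genes, 8 of 8 ephrins, 20 of 20 semaphorins and 9 of 9 plexins were measurable.

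Full-thickness dorsal skin was taken from male mice aged 42 days whose hair follicles were labelled as telogen, when follicles rest between growth phases. In the group called cKO, Fgf18, a secreted growth factor, had been deleted in keratin 5-positive epithelial cells, and cells of the dermis, vessels and nerves in the same sample were not targeted. The group called WT was C57BL/6, the strain also given for cKO, and the labels name neither the Cre line nor a floxed control without it. RNA of 3 mice was pooled for each group and each pool was hybridised to 2 arrays, so every SD, SE and p below measures the spread between duplicate arrays, and the test compares 2 pools and not the genotypes.

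Eph receptors are receptor tyrosine kinases on the cell surface, and ephrins are their membrane-bound ligands. Cells that meet through this pair repel or hold one another, and each side can signal into its own cell. Semaphorins are secreted or membrane-bound guidance cues, and plexins are the receptors that pass their signal to the cytoskeleton, with neuropilins as co-receptors for most of the secreted class. In skin these families are known for guiding nerves and vessels and for keeping epithelial cells in order within the epidermis and the follicle.

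Across genes, each by its brightest kept probe, r between duplicates was 0.997 in cKO and 0.996 in WT. Between arrays of different pools it was 0.962 to 0.964. All 12 skin identity markers were measured. The targeted gene, Fgf18, read 5096 and 5293 on the cKO arrays, against 5748 and 6076 on the WT arrays (log2 change -0.33, adjusted p = 0.0053), a difference under the 1.5-fold used for calls here. Whether its probe lies in the deleted part is not given, so it does not check the labels. All 12 measured hair shaft and inner root sheath markers, genes known from growing follicles, were called higher in cKO. Their summed levels were 334.34 and 332.08 in cKO against 1.95 and 2.04 in WT. Krt25, Krt34, Krt85 and Krt86 were not well above background in WT and were kept through the cKO arrays alone. Cycling-cell markers had 8 of 8 called higher, beside 5.64% of all genes. Transcripts of growing follicles were thus present in a cKO pool labelled telogen. In whole skin, fewer cells of a type and less RNA per cell cannot be told apart, and the part of these shifts in any guidance gene was not tested.

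Promoter sequence is shown for 4 genes: Ephb1 and Sema3c, which are the 2 guidance genes called below, and Sema3d and Sema3e, secreted semaphorins from the same stretch of chromosome 5 as Sema3c that had an adjusted p under 0.05. Each is the 250 bases before the start of the gene on its own strand, from RefSeq on GRCm38.p6. Capitals mark matches, on either strand, to the motif CCAAT (known as a promoter box bound by NF-Y), to the motif GGGCGG (known as a box bound by Sp1) or to the motif CTTTG (known as the core read by TCF and LEF factors). The windows are chr9:102354694-102354943 on the minus strand for Ephb1, and on the plus strand chr5:17574566-17574815 for Sema3c, chr5:12382916-12383165 for Sema3d and chr5:14025026-14025275 for Sema3e.
Ephb1: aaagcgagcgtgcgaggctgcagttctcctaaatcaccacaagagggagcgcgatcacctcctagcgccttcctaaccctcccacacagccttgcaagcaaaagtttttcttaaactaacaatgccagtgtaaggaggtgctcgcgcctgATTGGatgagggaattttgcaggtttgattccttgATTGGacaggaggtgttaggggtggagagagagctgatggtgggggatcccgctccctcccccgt
Sema3c: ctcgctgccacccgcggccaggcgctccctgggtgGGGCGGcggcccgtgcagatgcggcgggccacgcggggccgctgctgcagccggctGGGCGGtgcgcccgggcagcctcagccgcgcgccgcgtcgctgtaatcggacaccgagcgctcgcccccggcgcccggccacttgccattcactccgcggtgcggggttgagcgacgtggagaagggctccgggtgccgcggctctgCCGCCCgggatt
Sema3d: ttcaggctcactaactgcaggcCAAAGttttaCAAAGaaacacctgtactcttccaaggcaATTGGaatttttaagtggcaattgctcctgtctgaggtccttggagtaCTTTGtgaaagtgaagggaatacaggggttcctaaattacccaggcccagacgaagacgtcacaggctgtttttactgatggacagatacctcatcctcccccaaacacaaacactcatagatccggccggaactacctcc
Sema3e: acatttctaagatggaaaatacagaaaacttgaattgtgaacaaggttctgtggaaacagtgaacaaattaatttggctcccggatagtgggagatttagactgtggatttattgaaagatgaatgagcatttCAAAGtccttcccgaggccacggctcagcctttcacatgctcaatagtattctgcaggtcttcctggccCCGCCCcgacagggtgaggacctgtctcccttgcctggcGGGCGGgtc

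The Ephb1 window held 2 CCAAT matches, both on the opposite strand, and the Sema3c window held 3 GGGCGG matches and 78.4% G and C. The Sema3d window held 1 CCAAT and 3 CTTTG matches, and the Sema3e window 2 GGGCGG and 1 CTTTG, so no searched motif was in all the windows of the chromosome 5 genes. Over the 32851 windows of the table, 33.8% held CCAAT, 32.7% held GGGCGG and 48.6% held CTTTG. Of the 46 kept genes, 40 had a window. A match describes these letters only, and none of them was measured as a binding site here.

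Nearly all guidance genes differed by less than 1.5-fold between the pools. With limma across all kept probes and a call at an adjusted p under 0.05 and at least 1.5-fold, 1 gene rose (Ephb1), 1 fell (Sema3c) and 44 were not called. Among all 17553 genes, 5.64% were called higher, 4.79% lower and 10.4% either way, so 2 of 46 guidance genes is a share no larger than that background. The median log2 change was 0.07 over the guidance genes and -0.05 over all genes. The median size of the change, whatever its direction, was 0.29 over the guidance genes and 0.19 over all genes.

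**Figure D1:**
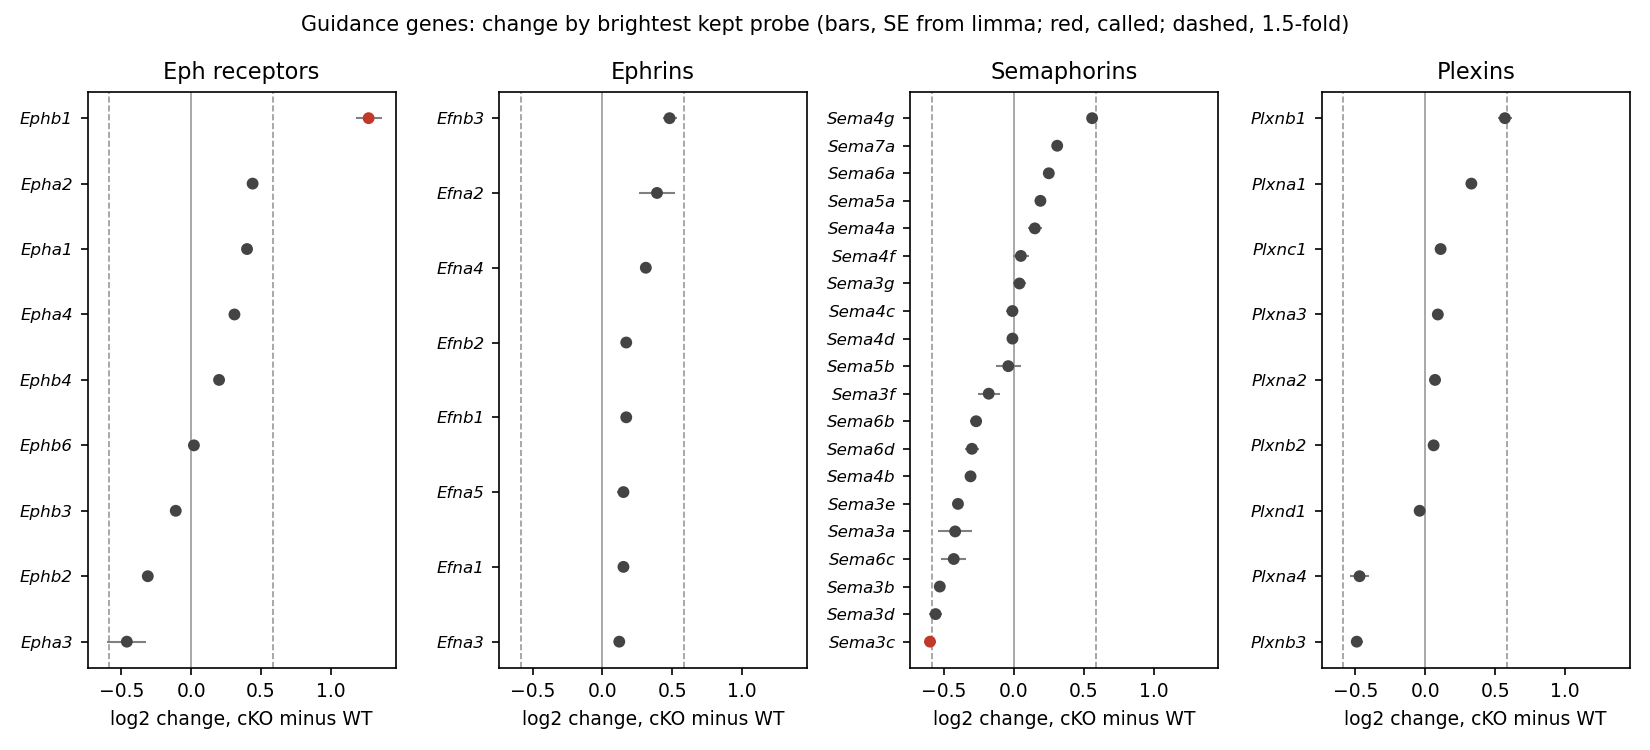
Log2 change (x axis, cKO minus WT, SE bars from limma) of each of the 46 kept guidance genes (y axis) by its brightest kept probe, in 4 panels by class. Ephb1 at 1.27 and Sema3c at -0.60 are the genes in red, and all 8 ephrins lie right of 0.

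Small differences could still be resolved, since duplicate arrays agreed closely. The median difference between duplicates of a guidance gene was 0.039 log2 units in cKO and 0.035 in WT, with 0.3 the largest in each. Without the limit on fold, 27 of the 46 genes had an adjusted p under 0.05, 16 higher in cKO and 11 lower, beside 52.9% of all genes, with 21.0% higher and 32.0% lower. The arrays of the 2 pools did not overlap for 40 of 46 guidance genes, and the same held for 81.8% of all genes. Both shares, taken over the 2 directions together, are close to their background, and both rest on duplicates of 1 pool. By direction, the share higher was larger and the share lower smaller than over all genes, a split that was not tested.

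**Figure D2:**
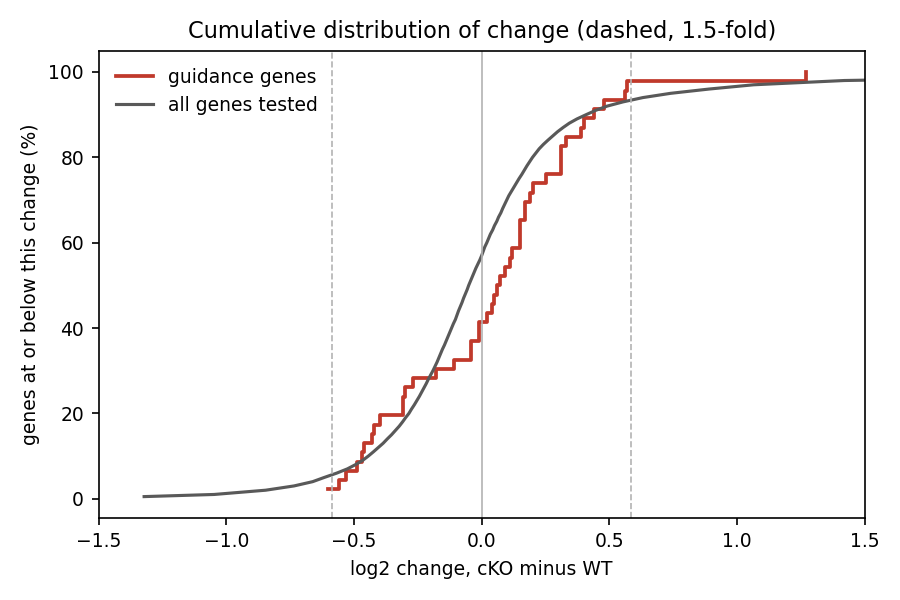
Cumulative share of genes (y axis, %) at or below each log2 change (x axis, cKO minus WT) for the 46 guidance genes in red and all 17553 genes in grey, with dashed lines at 1.5-fold. The median is 0.07 for the guidance genes and -0.05 for all genes, and the middle of both curves lies well inside the dashed lines.

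Among the receptors, Ephb1, an EphB kinase that binds ephrin-B ligands, stood out. Its probe lies at chr9:101824731-101824790 on the minus strand (mm9). The processed signal, the scanner brightness after background subtraction in arbitrary units, was 206 and 209 on the cKO arrays, against 70.6 and 85.7 on the WT arrays. Both cKO values lay above both WT values, with the duplicates nearer to each other than to the other pool. With each array scaled to its 75th percentile, the cKO arrays averaged -2.78 ± 0.025 and the WT arrays -4.06 ± 0.16 on the log2 scale (SD, n = 2 each), a 2.42-fold rise (log2 change 1.27, SE 0.093, adjusted p = 0.0045). Only 1 kept probe reads Ephb1, so no other probe bears on this value. Hair matrix markers also stood higher, with 7 of 8 called and summed levels of 8.26 and 8.21 in cKO, against 4.33 and 4.20 in WT. Melanocyte markers did too, with 6 of 6 measured called higher, summed levels of 14.16 and 14.35 in cKO, against 8.77 and 8.70 in WT, and Tyr not kept. Shh and Oca2, 1 called gene in each list, were not well above background in WT and were kept through the cKO arrays alone. Of all genes, 5.64% were called higher. The part of either list in the Ephb1 value was not tested.

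Epha4, an EphA kinase that binds both ephrin classes, gave different calls by probe. Its brightest probe read 1610 and 1695 in cKO, against 1182 and 1238 in WT (log2 change 0.31, adjusted p = 0.0058), which is under the fold limit. Its other kept probe, at chr1:77365747-77365806, read 284 and 270 in cKO, against 144 and 156 in WT (log2 change 0.74, SE 0.059, adjusted p = 0.0050), which is a call. Both probes were higher in cKO on every array, and their changes differed by less than 0.5 log2 units. Counted by probe, 2 of the 68 kept probes were called higher (4.92% of all probes were) and 1 lower (4.80%).

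**Figure D3:**
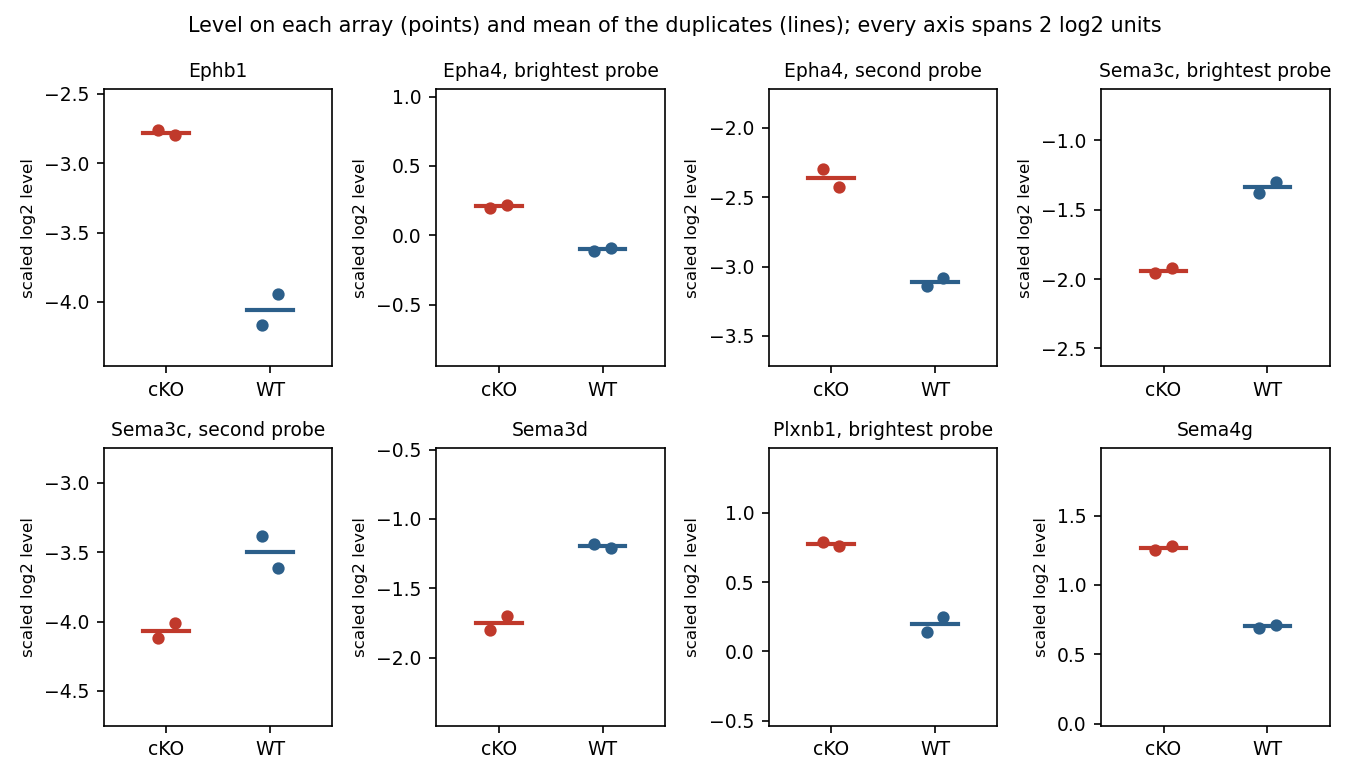
Scaled log2 level (y axis, every panel spanning 2 log2 units) on each cKO array (left, red) and WT array (right, blue) for 8 probes of 6 guidance genes, with lines at the mean of the duplicates. The pools are apart in every panel, most widely for Ephb1, whose means are -2.78 and -4.06.

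The other measured EphA receptors did not pass both limits. Epha1 read 17099 and 17460 in cKO, against 11730 and 12041 in WT (log2 change 0.40, adjusted p = 0.0039). Epha2, a receptor abundant in epithelia, read 3500 and 3759 in cKO, against 2363 and 2469 in WT (log2 change 0.44, adjusted p = 0.0044). Each was higher in cKO on both arrays by less than 1.5-fold. Epha3, picked out after its values were seen, was dim, at 52.4 and 66.6 in cKO against 77.7 and 69.8 in WT (log2 change -0.46, adjusted p = 0.070). Epha5, Epha6, Epha7, Epha8 and Epha10 were on the array with 9 probes, none well above background on any array, with signals of 3.85 to 28.5.

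The remaining EphB receptors moved less than Ephb1 and in both directions. Ephb3 read 3500 and 3514 in cKO, against 3382 and 3492 in WT, and after scaling its log2 change was -0.11 (adjusted p = 0.052). Ephb6, which lacks an active kinase, read 3291 and 3465 in cKO, against 2956 and 3072 in WT (log2 change 0.02, adjusted p = 0.53). Neither difference passed the test at this spread. Ephb4, the venous endothelial receptor for ephrin-B2, was at 0.20 (adjusted p = 0.016) and Ephb2 at -0.31 (adjusted p = 0.0066). The median over the 5 EphB genes was 0.02, and over the 4 EphA genes 0.35.

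All 8 ephrin ligands had slightly higher values in cKO by their brightest probe, and limma called none. The 8 changes ran between 0.12 and 0.48 with a median of 0.17, 5 of the 8 had an adjusted p under 0.05, beside 52.9% of all genes, and 7 an unadjusted p under 0.05, beside 61.2%. Of all genes, 42.9% had a positive change. Under all 17 settings, the one used here included, no measured ephrin had a change below 0.

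The ephrin-B ligands, which span the membrane, each passed the limit on adjusted p, as did 52.9% of all genes. Efnb1 read 12866 and 13723 in cKO, against 10531 and 10847 in WT (log2 change 0.17, adjusted p = 0.021). Efnb2, the arterial ligand of Ephb4, read 5278 and 5572 in cKO, against 4338 and 4384 in WT (log2 change 0.17, adjusted p = 0.021). Its other kept probe went the other way, at -0.15 (adjusted p = 0.14), so the direction for Efnb2 depends on the probe. Efnb3 had the largest change of the class, at 602 and 641 in cKO against 383 and 426 in WT (log2 change 0.48, adjusted p = 0.0076), and was picked out here after its values were seen.

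The ephrin-A ligands, held to the membrane by a lipid anchor, had changes of 0.12 to 0.39. Efna3 read 5899 and 6018 in cKO, against 4959 and 4965 in WT (log2 change 0.12, adjusted p = 0.051). Efna5 read 2606 and 2876 in cKO, against 2214 and 2271 in WT (log2 change 0.15, adjusted p = 0.066). Neither difference passed the test. Efna4 at 0.31 (adjusted p = 0.0062) and Efna1 at 0.15 (adjusted p = 0.031) did pass the limit on p. Efna1, Efna3 and Efna4 have probes within 62.1 kb of chromosome 3 (mm9). Efna2, also picked out after its values were seen, was near the detection limit, at 54.9 and 70.1 in cKO against 44.7 and 41.2 in WT (adjusted p = 0.093), with 1 of its WT arrays not well above background.

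The semaphorins had more lower than higher values in cKO, 13 against 7. Of all genes, 42.9% had a positive change, so lower values were the more common over all genes too. Of the 7 class 3 genes, the secreted ones, 6 had lower values in cKO, with a median of -0.42, and 1 was called. Of the 13 genes of classes 4 to 7, which are tied to the membrane, 7 were lower and 6 higher, with a median of -0.01, and among them class 6 had 3 of 4 lower and a median of -0.29. The subclasses were not tested against each other, and the medians describe these pools only. The all-gene median was -0.05.

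Sema3c, a secreted semaphorin known for guiding neural crest and endothelial cells, was the only guidance gene called lower. Its brightest probe, at chr5:17234078-17234137 on the plus strand (mm9), read 361 and 383 in cKO, against 488 and 532 in WT. On the scaled log2 axis the cKO arrays averaged -1.94 ± 0.025 and the WT arrays -1.34 ± 0.055 (SD, n = 2 each), a 1.51-fold fall (log2 change -0.60, SE 0.041, adjusted p = 0.0041). Its other kept probe, at chr5:17083479-17083538, had scaled log2 levels of -4.12 and -4.01 in cKO, against -3.38 and -3.61 in WT (log2 change -0.56, SE 0.10, adjusted p = 0.023), below the fold limit. Both probes were lower in cKO on every array. The fold of the brightest probe lies on the limit itself, and the call was lost in 5 of 16 other settings, with changes of -0.58 to -0.52. Leaving out cKO replicate 1 (-0.58) or WT replicate 2 (-0.56) was among them.

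Other secreted semaphorins had changes of like size without a call. Sema3b read 11137 and 11809 in cKO, against 14813 and 15235 in WT (log2 change -0.53, adjusted p = 0.0030). Sema3d read 402 and 446 in cKO, against 562 and 570 in WT (log2 change -0.56, adjusted p = 0.0054). Sema3e, the ligand of Plxnd1, read 887 and 942 in cKO, against 1076 and 1105 in WT (log2 change -0.40, adjusted p = 0.0043). In each of these 3 genes both cKO arrays lay below both WT arrays, by less than 1.5-fold. The 3 kept Sema3e probes were all lower, at -0.40, -0.26 and -0.57. Sema3d and Sema3e were picked out after their values were seen.

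The rest of the class did not pass the test. Sema3a, the classic repellent of sensory axons, was dim, and its probes gave -0.42 (adjusted p = 0.066) and 0.01 (adjusted p = 0.98). Sema3f was at -0.18 (adjusted p = 0.15) and Sema3g at 0.04 (adjusted p = 0.54). Probes of Sema3d, Sema3a, Sema3e and Sema3c share 4.65 Mb of chromosome 5 (mm9), and Sema3b and Sema3f 84.0 kb of chromosome 9. Of 5 other measured features in the chromosome 5 stretch, 1 was called lower (Cacna2d1, a calcium channel subunit), and their median was -0.23.

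Summed marker levels of vessels and muscle were also lower in the cKO pool, and so was the sum of the general skin identity list. Skin identity markers summed to 1395.95 and 1388.64 in cKO, against 1523.35 and 1646.56 in WT, with 1 of 12 called lower. Changes within this list went both ways, from -0.63 (Lum) to 0.31 (Krt14) on the log2 scale, with a median of -0.17. Of all genes, 4.79% were called lower. Blood endothelial markers summed to 32.74 and 32.41 in cKO, against 36.80 and 37.11 in WT, with 1 of 11 called lower (Emcn). Smooth muscle markers summed to 78.78 and 77.95 in cKO, against 116.21 and 118.81 in WT, with 2 of 8 called lower (Acta2 and Des). Their log2 changes ran from -0.76 (Acta2) to 0.07 (Cspg4), with a median of -0.27. The smooth muscle sum rests mostly on Acta2, at scaled log2 means of 5.60 in cKO and 6.36 in WT. Tagln of the same list had a log2 change of 0. Skeletal muscle markers, with 4 of 10 called lower, summed to 893.86 and 892.22 in cKO, against 1226.19 and 1285.39 in WT. Lymphatic markers had 1 of 5 called lower (Lyve1), adipocyte markers 2 of 8 (Lep and Retn) and sebaceous markers 2 of 6 (Dgat2 and Soat1). The median log2 change was -0.20 for adipocyte and -0.48 for sebaceous markers. Fabp4 of the adipocyte list (0.19) and Awat2 of the sebaceous list (0.22) went the other way. T cell markers had 1 of 8 called higher (Cd4, kept through the cKO arrays alone), beside 5.64% of all genes. Macrophage markers had a median log2 change of -0.08. The part of these shifts in the semaphorin values was not tested.

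Among the membrane-bound semaphorins, Sema4g came nearest to a call. It read 3328 and 3532 in cKO, against 2053 and 2148 in WT (log2 change 0.56, SE 0.029, adjusted p = 0.0029), a 1.48-fold difference. Sema7a, which is anchored by a lipid, read 5634 and 5908 in cKO, against 4141 and 4281 in WT (log2 change 0.31, adjusted p = 0.0052). Sema4a read 9399 and 10408 in cKO, against 7733 and 8381 in WT (log2 change 0.15, adjusted p = 0.084). The first of these genes was the most clearly apart and the last did not pass the test.

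The 4 class 6 semaphorins, transmembrane ligands of the A-type plexins, all had an adjusted p under 0.05, as did 52.9% of all genes. None was called. Sema6b, Sema6c and Sema6d were lower in cKO, at -0.27 (adjusted p = 0.019), -0.43 (0.030) and -0.30 (0.021), and the second kept probes of Sema6c and Sema6d gave -0.43 and -0.28. Sema6a was higher, at 0.25 (adjusted p = 0.0097). In class 4, Sema4b was at -0.31 (adjusted p = 0.010) on a dim probe, and Sema4c, Sema4d and Sema4f lay between -0.01 and 0.05. Sema5a was at 0.19 (adjusted p = 0.017) and Sema5b at -0.04 (adjusted p = 0.74). The small values of Sema4c, Sema4d, Sema4f and Sema5b took the other sign under at least 1 other setting.

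No plexin was called by limma, and 6 of 9 had an unadjusted p under 0.05, near the 61.2% of all genes. Plxnb1, the receptor of Sema4d, had the largest difference, at 2420 and 2464 in cKO against 1405 and 1570 in WT (log2 change 0.57, SE 0.050, adjusted p = 0.0058). Its second probe read 2094 and 2134 in cKO, against 1406 and 1351 in WT (log2 change 0.47, adjusted p = 0.0075). Both probes were higher in cKO, by 1.49-fold and 1.39-fold, under the limit of 1.5-fold. Plxnb3 went the other way, at 531 and 518 in cKO against 652 and 681 in WT (log2 change -0.49, adjusted p = 0.0055), and was picked out after its values were seen. Plxnb2 read 15091 and 15480 in cKO, against 13383 and 13182 in WT (log2 change 0.06, adjusted p = 0.26).

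The A-type plexins, which work with neuropilins for the secreted semaphorins and bind class 6 directly, were mixed. Plxna1 read 5249 and 5507 in cKO, against 3772 and 4006 in WT (log2 change 0.33, adjusted p = 0.0061), while its second probe gave -0.14 (adjusted p = 0.082). Plxna2 read 3366 and 3446 in cKO, against 2793 and 3081 in WT (log2 change 0.07, adjusted p = 0.25), and its other probes gave 0.09 and -0.30. The direction of these genes therefore depends on the probe, and for Plxna2 also on the setting. Plxna3 was at 0.09 (adjusted p = 0.058), with a second probe at 0.45 (adjusted p = 0.0057), and Plxna4 was at -0.47 (adjusted p = 0.013). Plxnc1, the receptor of Sema7a, was at 0.11 (adjusted p = 0.052) and Plxnd1, an endothelial plexin, at -0.04 (adjusted p = 0.40). Of the 19 guidance genes with several kept probes, 4 (Efnb2, Sema3a, Plxna1 and Plxna2) had probes of opposite sign, and in none did probes differ by over 0.5 log2 units.

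The partners of these receptors were likewise mostly not called. Of 10 measured semaphorin co-receptors, limma called none, and 5 had an unadjusted p under 0.05 (61.2% of all genes did). The co-receptor changes ran from -0.50 (Kdr) to 0.51 (Nrp2), with a median of -0.05. Nrp2, a neuropilin that binds Sema3c and Sema3f, read 13208 and 13417 in cKO, against 8088 and 8833 in WT (log2 change 0.51, adjusted p = 0.0049). Mst1r, a kinase that pairs with B-type plexins, was at 0.11 (adjusted p = 0.046). Of 18 measured plexin effectors, 2 were called higher and none lower, with a median of 0.03 and changes from -0.57 (Dpysl2) to 0.63 (Rnd1). The 2 calls are near the 10.4% of all genes called either way. Rnd1, a small GTPase that binds plexins, read 586 and 540 in cKO, against 315 and 343 in WT (log2 change 0.63, adjusted p = 0.0098). Dpysl4, of the collapsin response mediator family, read 290 and 318 in cKO, against 187 and 177 in WT (log2 change 0.59, adjusted p = 0.0081). In both, the duplicates of a pool lay close together and the pools did not overlap.

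Of 21 measured Eph and ephrin effectors, limma called none, and the median was 0.09. An unadjusted p under 0.05 was found for 13 of the 21, near the 61.2% of all genes. The brightest, the ephrin-B adaptor Sdcbp and the PDZ protein Pick1, were at -0.16 (adjusted p = 0.029) and 0.23 (adjusted p = 0.064). For comparison, the other guidance families (netrins, slits, RGM proteins and their receptors) had 2 of 17 measured genes called higher and none lower. Their median was -0.02, and 10.4% of all genes were called either way, near that share. The 17 include 2, Dcc and Ntn4, that were kept through the cKO arrays alone. Unc5b, a netrin receptor also known from vessels, read 1033 and 1140 in cKO, against 440 and 433 in WT, a 2.25-fold rise (log2 change 1.17, adjusted p = 0.0024). Ntn4, a laminin-like netrin, read 77.9 and 85.1 in cKO, and neither WT array had it well above background. It was thus at least 1.99-fold higher, though the filter kept it through the cKO arrays alone.

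The filter on dim probes touched few of these values. Of the 68 kept probes, 64 were well above background on all 4 arrays. The 4 just inside the filter, for Efna2, Ephb2, Ephb4 and Sema3e, had signals of 25.8 to 70.1. The 20 probes outside it included 5 that were well above background on a single array, with signals of 7.76 to 131, for Plxnc1, Sema3a, Sema4d, Sema5a and Sema6a. Each of those 5 genes was measured by another probe.

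**Figure D4:**
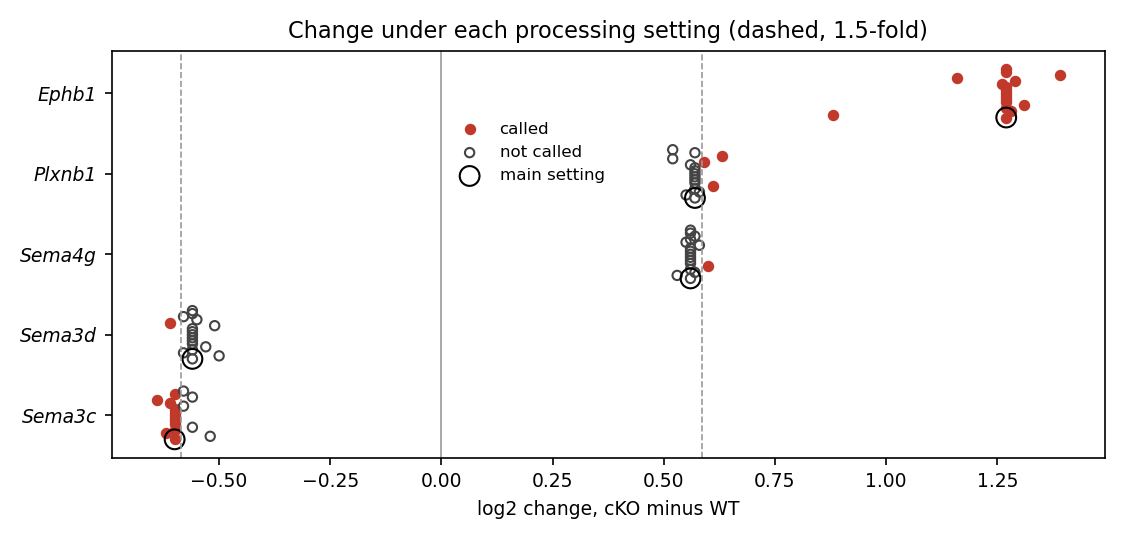
Log2 change (x axis, cKO minus WT) of 5 guidance genes (y axis) under the setting used here and 16 others, filled where called and with dashed lines at 1.5-fold. Ephb1 was called under each, at 0.88 to 1.39, while the changes of Sema3c, Sema3d, Sema4g and Plxnb1 lie on both sides of a dashed line.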

How the data were processed

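Per the file headers, arrays were quantified with Agilent Feature Extraction 10.7.3.1, and the authors deposited spot intensity after background subtraction. The authors' deposited processed values are that intensity divided by 1 number per array, a linear ratio not centred per gene, with column medians of 0.101, 0.098, 0.099 and 0.101 (cKO, then WT). What computed them is not stated in the labels or headers. They served as an alternative.

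The 43379 non-control spots of an array read 41174 probes, with 62.1% to 69.1% of the spots well above background, and none was saturated. Slide and scan time were shared by the 4 arrays, so neither could be fitted as a batch. The log2 of the deposited intensity minus the array's 75th percentile was used. Non-uniform and population outlier spots were set missing, and spots of a probe were averaged. The test was limma 3.58.1 under R 4.3.3 (a moderated two-sided test, with Benjamini-Hochberg adjustment across the 26068 kept probes), with the fit also tested on simulated data. The probe of a gene with the highest mean level stood for it. Summed marker levels add each gene's signal over the 75th percentile. Probe names were checked against RefSeq gene names on GRCm38.p6, and all 88 guidance probes kept theirs. Probe coordinates are mm9 per the file headers, and no mm9 gene models were used, so the exon or UTR under a probe is not stated. The guidance genes and other lists were chosen with earlier results of these data known. Values per array are given for called genes, for genes whose probes disagree in call, for the 4 brightest others of each class, and for the top called or 2 brightest genes of other lists; other members have only their change, unless marked as picked out after their values were seen. Other tools were data.table (version 1.17.8), Python 3.11.15, pandas 2.3.3 and matplotlib 3.10.9. One marker list is not reported here.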

Additional observations from a re-analysis of the deposited data

How the results depend on the processing

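Ephb1 was called in all 16 other settings, with log2 changes of 0.88 (normexp and quantile) to 1.39 and adjusted p of 0.00013 to 0.043 (limma). Sema3c kept its direction in all 16 and lost its call in 5 settings: normexp and quantile (-0.52), the 75th percentile of spots well above background on all arrays (-0.56), the mean of a gene's probes (-0.58), and without cKO replicate 1 (-0.58) or WT replicate 2 (-0.56). The guidance genes called lower were then 0 with normexp and quantile, with the spots well above background and with the mean of probes. With those spots, 3 guidance genes were called higher, since Plxnb1 (0.61) and Sema4g (0.60) joined. Leaving out single arrays gave 1 to 2 guidance genes higher and 0 to 2 lower: Plxnb1 was called without cKO replicate 2 (0.59) and without WT replicate 2 (0.63), and Sema3d without cKO replicate 2 (-0.61). A lone array was then assumed to vary like the other group. All genes called lower numbered 477 with normexp and quantile, against 841. Of 735 values of single genes under other settings, 725 stayed on their side of the call. Of called genes, 54.1% were higher, 60.1% with normexp and quantile, and 48.3% with probes well above background on all arrays. Replicate numbers are shared labels of separate hybridisations: deviations from the group means correlated at -0.043 across genes, and with the replicate block 1 guidance gene was called higher and 1 lower, the same genes. With 2 pools, the spread between mice was not measured.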
